A study of Mus musculus with 11 samples.

Results

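Replication-dependent histone genes encode the H1 linker histones and the core histones H2A, H2B, H3 and H4 that package new DNA. They were taken as the protein-coding genes whose symbols start with H1f1 to H1f5, H2ac, H2bc, H3c or H4c followed by a number. The rule found 62 genes among 21652 protein-coding genes with a known start: 5 for H1, 17 for H2A, 16 for H2B, 12 for H3 and 12 for H4. Each class has many near-copies, and the genes lie together in clusters. As background, their transcription is tied to S phase, and their mRNAs end in a conserved stem-loop in place of a poly(A) tail. The coactivator Npat drives their transcription after phosphorylation by Cdk2 with cyclin E, and Slbp binds the stem-loop for processing and export.

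H3K4me3, a mark of active or open promoters, and H3K27me3, the mark of Polycomb repression, were mapped in 3 populations by micrococcal nuclease ChIP of unfixed cells. Cap mesenchyme (nephron progenitors) was the Cited1-RFP+ population of E18.5 Cited1nuc-TagRFP-T kidneys, from a stock of (C57BL/6 x DBA)F1 origin kept on C57BL/6J (N5), and ureteric epithelium (the future collecting ducts) was the Hoxb7-GFP+ population of E15.5 Hoxb7myr-Venus/+ kidneys, of (C57BL/6J x CBA/J)F2 origin kept on C57BL/6J. Embryonic stem (ES) cells were the wild-type 129/Ola line E14 at passage 15, which is 1 line. RNA came from wild-type C57BL/6 metanephric mesenchyme and ureteric bud, the E11.5 tissues from which these kidney populations descend, dissected by hand. Each of these groups held 1 sample, so no value below has a replicate spread and no test between groups was possible. The chromatin and RNA samples also differ in age, strain and means of isolation.

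Most markers followed the labels of the dissected tissues. Six2, a nephron progenitor factor, stood at 55.5 FPKM in metanephric mesenchyme against 1.58 in ureteric bud, while Ret, a ureteric receptor, stood at 0.341 and 72.8. The epithelial gene Cdh1 was at 0.0188 and 72.2 FPKM and the endothelial gene Pecam1 at 3.85 and 0.597. Cited1, whose reporter marks the sorted progenitors, went the other way at this stage, with 2.78 and 8.34 FPKM. The pluripotency gene Pou5f1 was listed at 0 in both tissues and had H3K4me3 in ES cells alone of the 3 populations. Some chromatin went against the labels of the sorted cells: Hoxb7, whose name the ureteric reporter carries, had neither mark within 1 kb of its start in ureteric epithelium and H3K4me3 in cap mesenchyme, while the endothelial genes Pecam1 and Cdh5 were unmarked in the sorted progenitors and carried H3K4me3 in the ureteric cells. The part of other cells in the peaks below was not tested. The H3K4me3 lists held 32992 peaks for cap mesenchyme, 23958 for ureteric epithelium and 67022 for ES cells, and the H3K27me3 lists 108394, 144362 and 12879. The number of reads behind these lists is unknown.

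The members formed 4 groups when neighbours over 200 kb apart were separated. On chromosome 13 (mm10) the first group was chr13:21715711-21833475, with 17 members from H2bc13 to H2ac24, and the second was chr13:22035122-22043658, with 5 members from H2ac12 to H2bc11. The third and longest, chr13:23531044-23934913, held 30 members from H4c8 to H2ac1. The fourth, chr3:96219885-96270192, held 10 members from H2ac21 to H2bc18. Only the third contained other protein-coding genes, namely 7: the iron regulator Hfe, Trim38, the transporters Slc17a1, Slc17a2, Slc17a3 and Slc17a4, and the testis linker histone H1f6.

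Many H2A and H2B members are read in opposite directions from a shared promoter. There were 11 such pairs, each an H2A with an H2B gene, with 163 to 280 bases between the starts (median 191). They held 22 of the 62 members, or 35.5%, whereas 6.29% of all protein-coding genes had a divergent partner within 500 bases. The gaps of 4 pairs are printed because their genes are among those that differ most or least in RNA below. Each reads toward the H2A start, on the H2A strand, so that its first base adjoins the H2B start. Capitals mark CCAAT, the site of the activator NF-Y, the octamer ATTTGCAT, the site of Pou2f1, and TATAAA, each on either strand, so that ATTGG, ATGCAAAT and TTTATA are the same motifs reversed. Promoter sequences and their coordinates are those of RefSeq, GRCm38.p6, which shares its coordinates with mm10.
H2bc21-H2ac20, chr3:96220881-96221071, minus strand: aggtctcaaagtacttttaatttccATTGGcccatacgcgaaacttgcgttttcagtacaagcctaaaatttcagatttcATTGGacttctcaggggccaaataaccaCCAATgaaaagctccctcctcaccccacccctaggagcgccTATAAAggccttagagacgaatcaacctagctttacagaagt
H2bc15-H2ac15, chr13:21753913-21754075, minus strand: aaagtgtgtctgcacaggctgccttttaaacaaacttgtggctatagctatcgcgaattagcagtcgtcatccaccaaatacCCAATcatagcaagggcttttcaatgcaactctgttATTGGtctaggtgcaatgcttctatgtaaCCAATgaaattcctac
H2bc12-H2ac12, chr13:22035644-22035820, minus strand: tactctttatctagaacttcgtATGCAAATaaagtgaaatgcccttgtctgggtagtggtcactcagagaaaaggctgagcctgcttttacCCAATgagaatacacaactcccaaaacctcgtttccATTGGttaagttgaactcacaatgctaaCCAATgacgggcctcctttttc
H2bc8-H2ac8, chr13:23571221-23571399, minus strand: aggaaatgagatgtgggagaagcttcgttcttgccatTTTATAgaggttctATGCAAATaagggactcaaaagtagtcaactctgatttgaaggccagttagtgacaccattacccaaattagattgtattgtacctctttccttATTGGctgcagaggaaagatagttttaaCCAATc
The 10 gaps with a sequence held 2 to 5 CCAAT each, 3 held the octamer and 4 held TATAAA.

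Promoter letters differed by class. Of the 62 members, 57 had a RefSeq promoter. CCAAT, searched on both strands of the 250 bases before the start, was found in 47 of these 57 (82.5%) and in 36.5% of 17492 promoters of protein-coding genes. It stood in 5 of 5 H1, 17 of 17 H2A, 14 of 14 H2B, 8 of 10 H3 and 3 of 11 H4 promoters. At least 2 copies were found in 40 members, or 70.2%, against 12.0% of all promoters. The octamer ATTTGCAT, on both strands, was found in 6 of 17 H2A and 6 of 14 H2B promoters and in none of the other classes, 21.1% of members against 1.62% of all promoters. The counts for H2A and H2B share sequence, because a pair's gap is read for both of its genes. TATAAA, on the gene's own strand, was in 23 members (40.4%, all promoters 8.38%). AAACACA, the box of H1 promoters, was on either strand in 4 of 5 H1 promoters and 8 members in all (14.0%, all promoters 5.45%). GTCCGC, the core of known sites of the H4 gene activator Hinfp, was on either strand in 8 of 11 H4 promoters and 16 members in all (28.1%, all promoters 9.37%).

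The last 100 bases before the start are printed for the 3 H1 genes with the most RNA. They are also printed for H3c3, whose RNA differed most between the tissues, and for 2 H4 genes with near-identical promoters and uncertain RNA values. Each is on the gene's own strand, with the motifs above and GTCCGC in capitals on either strand.
H1f4, chr13:23622559-23622658, minus strand: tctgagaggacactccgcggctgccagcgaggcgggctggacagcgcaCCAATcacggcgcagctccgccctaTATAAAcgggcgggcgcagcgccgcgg
H1f1, chr13:23763568-23763667, plus strand: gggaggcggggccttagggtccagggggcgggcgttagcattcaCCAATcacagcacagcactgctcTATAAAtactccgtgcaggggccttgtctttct
H1f5, chr13:21780626-21780725, minus strand: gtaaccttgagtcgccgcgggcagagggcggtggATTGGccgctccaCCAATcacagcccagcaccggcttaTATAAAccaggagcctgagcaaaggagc
H3c3, chr13:23745522-23745621, minus strand: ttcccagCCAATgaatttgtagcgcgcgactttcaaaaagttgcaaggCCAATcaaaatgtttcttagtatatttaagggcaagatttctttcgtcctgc
H4c17, chr13:21811646-21811745, plus strand: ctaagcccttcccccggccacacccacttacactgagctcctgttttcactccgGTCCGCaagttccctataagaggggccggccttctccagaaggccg
H4c18, chr13:21832198-21832297, minus strand: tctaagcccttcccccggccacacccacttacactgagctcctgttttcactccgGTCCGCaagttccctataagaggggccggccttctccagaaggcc
The 3 H1 stretches each carry CCAAT followed by TATAAA. H4c17 and H4c18 hold the same letters, shifted by the position of the annotated start. A match is a description of letters only.

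H3K4me3 lay within 1 kb of the start of every member in every population. With at least 1 base of a peak within 1 kb of the start, 62 of 62 members were marked for cap mesenchyme, 62 of 62 for ureteric epithelium and 62 of 62 for ES cells. The share of all protein-coding genes was 64.1% for cap mesenchyme, 60.2% for ureteric epithelium and 68.0% for ES cells. The start itself lay inside the peak at 61, 60 and 62 members, and the whole gene lay inside a single peak at 56, 55 and 57. H2bc21, H2bc4, H2bc6, H2bc22 and H2bc23, whose annotated spans outran the peak, were among the exceptions in each population.

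H3K27me3 was rare in the same windows. It was found at 0 of 62 members for cap mesenchyme (7.72% of all protein-coding genes), 1 of 62 for ureteric epithelium (11.0%) and 1 of 62 for ES cells (12.0%). In ureteric epithelium the member was H2bc9, with a peak of 270 bp and a score of 48.3. In ES cells it was H2ac1, a testis-type H2A, with a peak of 430 bp and a score of 65.2. Neither peak reached the start, and both calls were lost with a window of 250 bp on each side. The score is the authors' own value for each peak, and it ranks peaks only within their list.

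Members were also covered by wide H3K4me3 peaks, many of them shared. The starts inside a peak fell in 33 distinct peaks for cap mesenchyme, 37 for ureteric epithelium and 31 for ES cells, so members are not independent here. Widths below are those of the widest peak within 1 kb of each start. In each population up to 5 starts fell in 1 peak, that of H2ac8, H2bc8, H2bc7, H2ac7 and H3c4, which was 7808 bp wide for cap mesenchyme, 7325 for ureteric epithelium and 9227 for ES cells. The widest peak of cap mesenchyme (9024 bp) and of ureteric epithelium (8207 bp) covered H4c8, H2ac10 and H3c8. In ES cells the widest (11603 bp) joined H1f2, H3c3 and H2bc3. The median width over members was 4266 bp for cap mesenchyme, 3163 for ureteric epithelium and 5443 for ES cells. Over the other genes with a peak the medians were 2348, 2230 and 3016 bp, and 54, 49 and 57 of 62 members were wider than that. A peak over several starts counts once for each of them in the member medians and counts. Peaks with 1 member start were not compared separately, so these widths do not show that a single member promoter is wider.

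**Figure D1:**
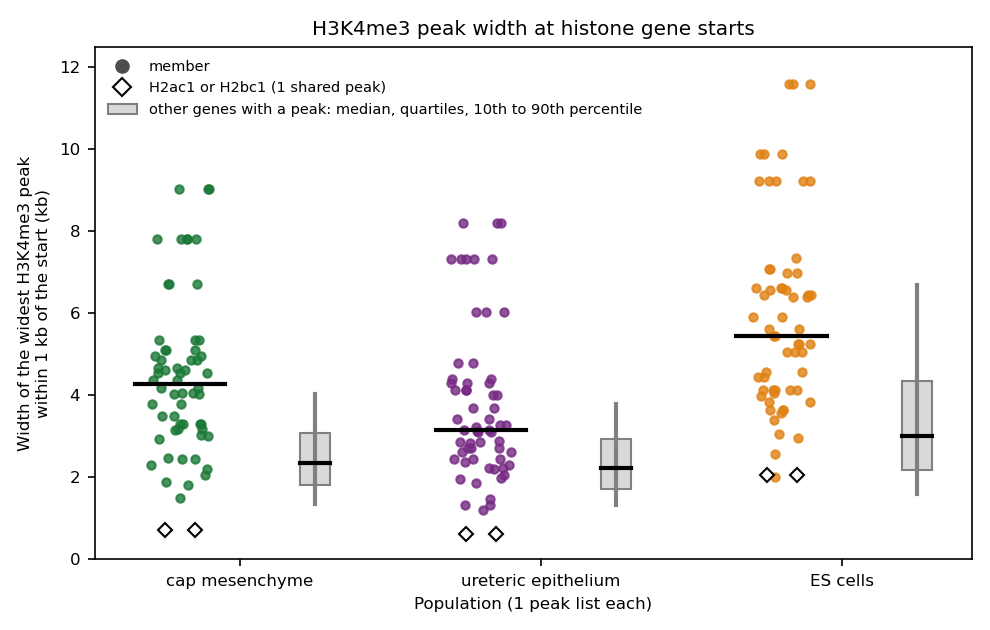
Width in kb of the widest H3K4me3 peak within 1 kb of each member's start, by population. Each circle is 1 member, the diamonds are H2ac1 and H2bc1, black bars are medians, and grey boxes show the median, quartiles and 10th to 90th percentile of other protein-coding genes with a peak. Member medians of 4266, 3163 and 5443 bp count a shared peak once per member and lie above those of the other genes. The diamonds lie lowest in both kidney populations.

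The testis-type pair stood apart from the others. H2ac1 and H2bc1 encode the H2A and H2B variants of male germ cells and share 1 divergent promoter. Their peak was 698 bp wide for cap mesenchyme, 618 for ureteric epithelium and 2044 for ES cells, with scores of 147, 55.6 and 403.33. The lowest score in the ureteric list was 50.01, so the ureteric call of this pair lies near the floor of its list. Over the other 60 members the narrowest peak was 1486, 1199 and 1992 bp, each at H4c2, and the lowest scores were 1571, 556 and 574. Outside this pair all 60 starts lay inside a peak in each population. H2bc1 RNA was 0.165 FPKM in metanephric mesenchyme against 0.351 in ureteric bud, and H2ac1 RNA was 0.662 and 2.54.

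Widths ran in the same order at most members. The peak was wider in cap mesenchyme than in ureteric epithelium at 56 of 62 members, and wider in ES cells than in cap mesenchyme at 56 of 62. Medians over the other genes with a peak ran in the same order, at 2348 bp for cap mesenchyme, 2230 for ureteric epithelium and 3016 for ES cells. The order is thus not particular to the members, and its share over all genes was not counted. Several blocks that were 1 peak in cap mesenchyme were listed as separate peaks a short way apart in ureteric epithelium. H4c9, H2ac11 and H2bc11 shared a peak of 5102 bp in cap mesenchyme and of 6611 bp in ES cells, while in ureteric epithelium each start had a peak of its own, of 2064 bp at H4c9, 1297 bp at H2ac11 and 1330 bp at H2bc11. H1f1 stood in a peak of 5341 bp with H4c1 and H3c1 in cap mesenchyme, and in one of 2377 bp in ureteric epithelium. These ureteric pieces nearly touch. The H4c9 peak ends at 22041786 and that of H2ac11 begins at 22041805, while that of H1f1 begins at 23762712 and its neighbour ends at 23762615. Peaks covered 68.9% of the second group, which holds H4c9, H2ac11 and H2bc11, in cap mesenchyme and 69.1% in ureteric epithelium. The listed width falls at such a split even where cover does not. Over the 62 members, widths in cap mesenchyme and ureteric epithelium had a Pearson correlation of 0.88, those in cap mesenchyme and ES cells 0.64, and those in ureteric epithelium and ES cells 0.51. Members in 1 peak share a point. The lists were called separately and differ in length, and the part of depth or calling in these widths was not tested.

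Over the 4 groups together, 580.48 kb in all, H3K4me3 peaks covered 22.5% of the bases for cap mesenchyme, 19.98% for ureteric epithelium and 30.8% for ES cells. On all of chromosome 13 the same peaks covered 2.08%, 1.58% and 4.84%. The second group, the shortest, was the most covered, at 68.9%, 69.1% and 96.4%. The first was covered over 32.3%, 29.1% and 47.1%, and that on chromosome 3 over 41.1%, 35.9% and 50.6%. The third, which includes the Slc17a genes, was covered over 16.4%, 14.3% and 22.2%. Of its 7 other genes, Hfe had H3K4me3 in all 3 populations, Slc17a4 in both kidney populations, H1f6 and Trim38 in ES cells alone, and Slc17a1, Slc17a2 and Slc17a3 in none. H3K27me3 peaks covered 0.641%, 0.911% and 0.106% of the 4 groups, against 1.28%, 2.14% and 0.507% of chromosome 13.

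**Figure D2:**
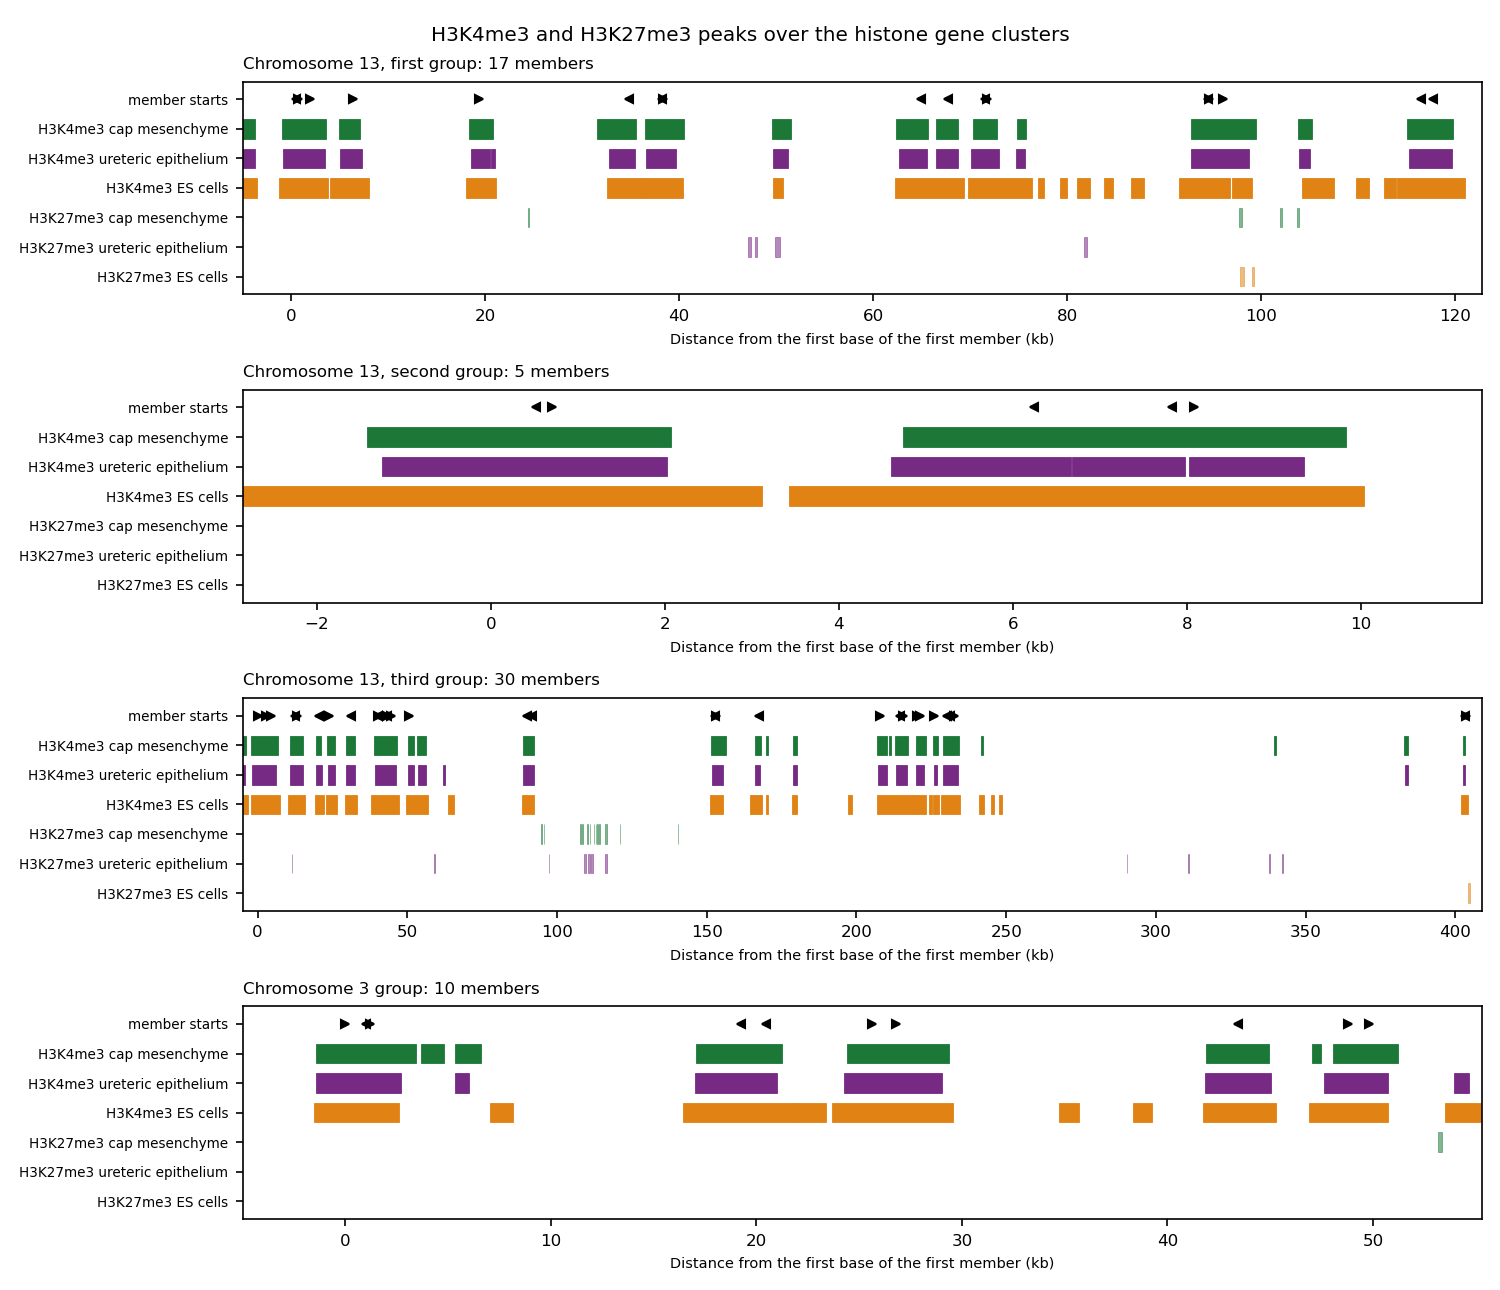
Peaks of both marks over the 4 groups of histone genes, by distance in kb from the first base of the first member. Arrowheads are member starts pointing along transcription and bars are deposited peaks, with H3K27me3 in paler colour. H3K4me3 bars sit under every arrowhead except that of H2ac1 in cap mesenchyme and those of H2ac1 and H2bc1 in ureteric epithelium, while H3K27me3 bars are few and mostly lie between the genes.

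RNA levels are deposited FPKM, fragments scaled by transcript length and by all mapped fragments. Comparisons of level between genes have limits. Member transcripts are mostly short, with a median of 481.5 bases, the shortest at 358 and the longest, that of H2bc21, at 2667. Any selection of RNA by poly(A) tails, which these mRNAs lack, was not taken into account. All 62 members had a row in the table. Of these, 52 reached 1 FPKM in at least 1 tissue, and 28 had at least 10 FPKM in metanephric mesenchyme against 30 in ureteric bud. The members summed to 1914 FPKM in metanephric mesenchyme against 2462 in ureteric bud, which is 1.45% and 1.22% of the sum over protein-coding genes. In whole tissue, a larger share of cells in S phase and more histone RNA per cell cannot be told apart. H2ac20 and H2bc18, both on chromosome 3, held 39.7% of the member sum in metanephric mesenchyme against 27.9% in ureteric bud.

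The 5 H1 genes, which encode the linker histones that bind DNA between nucleosomes, were all above 20 FPKM. H1f4 was at 174 FPKM in metanephric mesenchyme against 239 in ureteric bud. H1f1 was at 154 and 216, H1f5 at 107 and 139, H1f2 at 69.1 and 105, and H1f3 at 22.3 and 35.5. All 5 were higher in ureteric bud on the deposited scale, by 0.37 to 0.65 on the log2(FPKM + 1) scale, a direction that does not hold once the shift of all genes is removed (below), when the differences ran from -0.13 to 0.16. The deposited 95% intervals of the tissues overlapped for each of the 5. H1 supplied 27.5% of the member sum in metanephric mesenchyme against 29.9% in ureteric bud.

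RNA of the H2A class was dominated by few genes. H2ac20 stood at 461 FPKM in metanephric mesenchyme (deposited interval 401 to 521) against 316 in ureteric bud (277 to 356), the highest level of any member in metanephric mesenchyme. It was the only member whose deposited intervals placed it above ureteric bud in metanephric mesenchyme. H2ac15 was at 109 FPKM (91.5 to 126) in metanephric mesenchyme against 169 (146 to 191) in ureteric bud. H2ac4 was at 23.4 and 54.4 FPKM, with wide intervals of 1.35 to 45.5 and 19.6 to 89.2 that overlap. The 2 highest H2A genes held 88.3% of the class sum in metanephric mesenchyme against 79.0% in ureteric bud, whereas the median H2A member stood at 1.69 and 2.89 FPKM.

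Among H2B genes H2bc18 was highest, at 299 FPKM in metanephric mesenchyme against 371 in ureteric bud. Its deposited intervals of 259 to 339 and 327 to 415 overlap. H2bc3 was at 50.3 and 36.6 FPKM, H2bc14 at 31.1 and 44.1, and H2bc11 at 31.8 and 18.6. H2bc21, known in the mouse for an H2B variant of olfactory neurons, was low but differed, at 1.47 FPKM (0.989 to 1.96) and 4.83 (3.80 to 5.86), intervals that do not overlap. H2bc15 was at 2.74 and 2.31 FPKM.

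H3 genes had less RNA in metanephric mesenchyme than any other class, 97.0 FPKM summed over 12 genes, and 291 in ureteric bud. That difference rested largely on H3c3, at 28.0 FPKM (2.80 to 53.2) in metanephric mesenchyme against 175 (110 to 240) in ureteric bud, intervals that do not overlap. Without H3c3 the H3 sum was 69.1 and 116 FPKM, a ratio of 1.67 where the whole class gave 2.99. H3c6 stood at 26.8 and 46.5 FPKM and H3c11 at 11.1 and 19.1. H4 RNA was spread over several genes. H4c8 was at 30.2 FPKM (22.3 to 38.0) and 58.3 (46.3 to 70.2), H4c4 at 30.5 and 47.3, and H4c6 at 23.5 and 28.9. The 2 highest of the 12 held 34.1% of the H4 sum in metanephric mesenchyme against 39.1% in ureteric bud. H4c14 was at 15.2 and 31.3 FPKM.

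**Figure D3:**
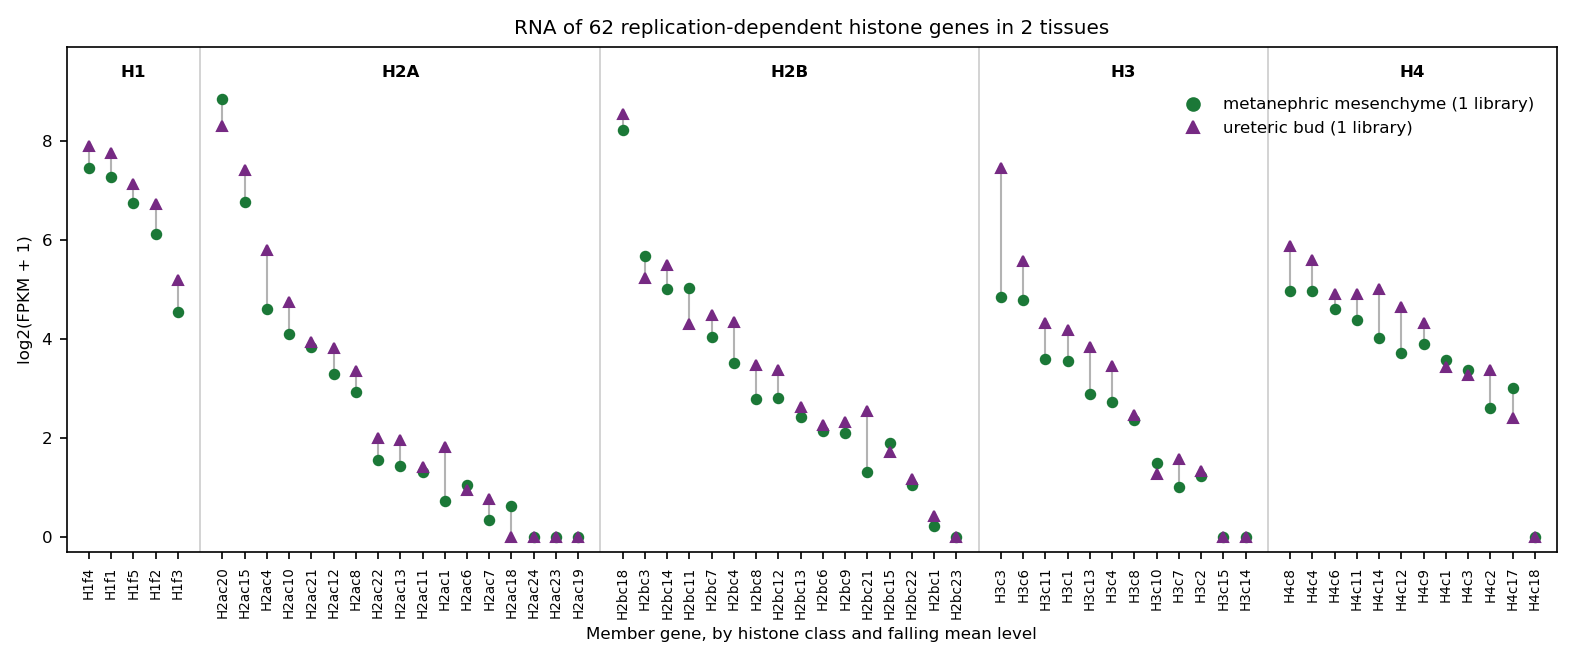
RNA of the 62 members as log2(FPKM + 1) in metanephric mesenchyme (circles) and ureteric bud (triangles), 1 library each, by class and falling mean level. H2ac20 and H2bc18 stand highest in their classes, H3c3 has the widest gap, and 7 members lie at 0 in both tissues.

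Set against the background of all genes, the member median lay close to that of the whole table. Over the 52 members at 1 FPKM or more in either tissue, the median difference, metanephric mesenchyme minus ureteric bud on the log2(FPKM + 1) scale, was -0.49, with a 95% order-statistic interval over genes of -0.61 to -0.31. Genes are not replicates, and this interval covers the spread among members only. The median over the 10952 protein-coding genes under the same rule was -0.48, and it was -0.46 where both tissues reached 1 FPKM, so the whole table is shifted toward ureteric bud. The difference was negative for 43 of 52 members (82.7%) and for 77.4% of all those genes. A 2-fold difference with at least 2 FPKM in the higher tissue was found for 4 members higher in ureteric bud, H3c3 (-2.60), H2bc21 (-1.24), H2ac4 (-1.18) and H2ac1 (-1.09), or 7.69% of members where 17.0% of all genes passed. It was found for 0 members higher in metanephric mesenchyme, where 4.33% of all genes passed. H4c14 (-0.997) lay just short of the bound. Among members with at least 2 FPKM in the higher tissue, the highest differences were those of H2bc11 (0.74), H4c17 (0.61), H2ac20 (0.54), H2bc3 (0.45) and H2bc15 (0.18), and H3c10 (0.23) lay below that level of RNA.

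With the ureteric bud values scaled so that the median gene at 1 FPKM or more in both did not differ, the member median turned from -0.49 to 0.020, where that of all genes was -0.011. H3c3 (-2.07) was then the only member 2-fold higher in ureteric bud, and H2bc11 (1.25), H2ac20 (1.08) and H4c17 (1.03) were 2-fold higher in metanephric mesenchyme. The shares of all genes were then 7.66% and 6.75%. The H3 sum was 2.06 times as high in ureteric bud on this scale, the H4 sum 1.04 times, the H1 sum 0.960 times, the H2B sum 0.814 times and the H2A sum 0.654 times. On the deposited scale the same ratios were 2.99, 1.52, 1.39, 1.18 and 0.951. The H3 class lay highest and the H2A class lowest on both scales. Without H2ac20 the H2A ratio was 1.61 as deposited and 1.11 after scaling, and without H3c3 the H3 ratio was 1.67 and 1.15.

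**Figure D4:**
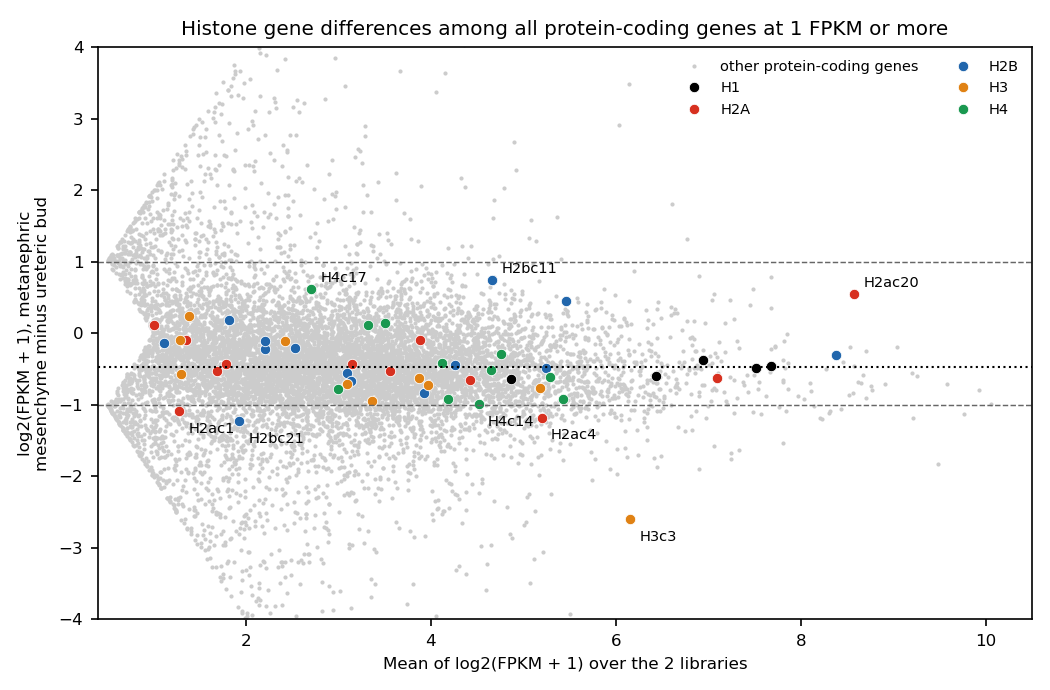
Difference in log2(FPKM + 1), metanephric mesenchyme minus ureteric bud, against the mean of the 2 libraries, for members (coloured by class) and the other protein-coding genes at 1 FPKM or more in either (grey). The dotted line is the median of all these genes (-0.48), dashed lines mark 2-fold, and genes beyond 4 are not drawn. Most members lie around the dotted line, H3c3 (-2.60) lies far below it and H2ac20 (0.54) above it, while most members between the dotted line and 0 change sign once the shift of all genes is removed.

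The order of the members was much alike in both tissues. Across the 52 members the Pearson correlation of log2(FPKM + 1) was 0.96 and Spearman's rho 0.96. These points share the library, the transcript models and possibly, for near-copies, the reads. Over the 62 members, the width of the H3K4me3 peak in cap mesenchyme and FPKM in metanephric mesenchyme had a Pearson correlation of -0.072 and a Spearman's rho of -0.12, and width in ureteric epithelium and FPKM in ureteric bud -0.18 and -0.27. For the peak score in place of the width these were 0.13 and -0.045, and -0.29 and -0.27. In cap mesenchyme 48 of the 62 members had a score of 3100 or more, with a median of 3100, so the score hardly ranks them there. The 62 also include the 7 members listed at 0 in both tissues, whose values are uncertain (below), and members in 1 peak share its width and score. These chromatin and RNA samples are of different ages.

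The genes of some divergent pairs had very different RNA, and in most pairs both starts lay in 1 H3K4me3 peak. The peaks and the RNA are of different ages. The gap and both starts were inside a single peak in 10 of 11 pairs for cap mesenchyme, 9 for ureteric epithelium and 11 for ES cells. H2ac20 was at 461 and 316 FPKM where its partner H2bc21 was at 1.47 and 4.83, a ratio of 313 in metanephric mesenchyme against 65.5 in ureteric bud. The listed transcript of H2bc21 has 2667 bases and that of H2ac20 has 468. FPKM is scaled by length, and the part of length in this ratio was not tested. H2ac15 exceeded H2bc15 39.7 times and 73.1 times. The H2B gene was the higher one in other pairs. H2bc11 exceeded H2ac11 21.5 and 11.3 times, and in ureteric epithelium these starts lay in separate peaks. H2bc7 exceeded H2ac7 57.6 and 29.9 times, but H2ac7 was under 1 FPKM and the deposited intervals of these partners overlap, with lower bounds of 0 for both. The genes H2ac12 and H2bc12 were near each other, at 8.79 and 6.02 FPKM in metanephric mesenchyme and 13.1 and 9.39 in ureteric bud. H2ac8 and H2bc8 were nearer still, at 6.64 and 5.93 FPKM, and at 9.29 and 10.1. The H2A gene was the higher in 6 of the 10 pairs with RNA in metanephric mesenchyme and in 5 of 10 in ureteric bud, and in 9 of 10 the same gene led in both tissues. The deposited intervals of the partners did not overlap in 3 pairs, the same in both tissues: H2ac20 with H2bc21, H2ac15 with H2bc15 and H2bc11 with H2ac11. The 4 gaps printed above come from unequal and equal pairs alike, and all 4 hold at least 2 CCAAT.

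**Figure D5:**
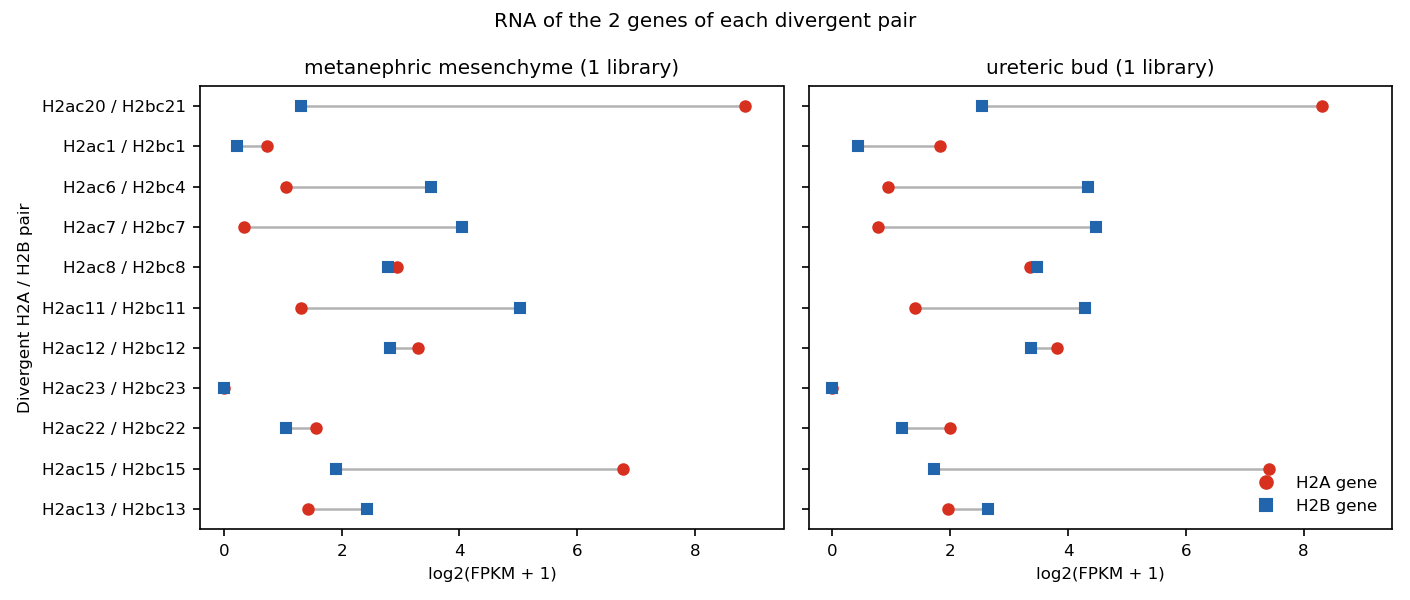
RNA of the H2A gene (circles) and the H2B gene (squares) of each of the 11 divergent pairs as log2(FPKM + 1), in metanephric mesenchyme and ureteric bud. H2ac20 and H2ac15 lie far to the right of their partners, H2bc7 and H2bc11 lie to the right of theirs, and the H2ac23 and H2bc23 symbols coincide at 0.

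Several members have promoters that are close copies, and their RNA values are treated as uncertain. The table lists 7 members at 0 in both tissues: H2ac19, H2ac23, H2ac24, H2bc23, H3c14, H3c15 and H4c18. Each has H3K4me3 in every population, with median peak widths of 4668 bp for cap mesenchyme, 4408 for ureteric epithelium and 5443 for ES cells. Most of their promoters shared long runs of bases with another gene. The longest run of identical bases shared with another member was taken over the 300 bases around the start. It had a median of 219 for these 7 (25 to 285) and 15 for the other 50 with a promoter. Of the 300 bases 250 lie before the start, so most of this sequence is outside the transcript. Transcript sequences were not compared. A run of at least 40 bases was found for 6 of the 7 and for 5 of the 50. H4c18 shared 285 bases with H4c17, H3c14 shared 231 with H3c15, H2ac19 shared 219 with H2ac18, and H2ac23 shared 200 with H2ac24. The exception, H2bc23, shared all 300 bases with H4bc24, a gene with the older name Hist1h2br that is outside the rule and was also listed at 0. H4c17 was at 7.06 FPKM in metanephric mesenchyme against 4.27 in ureteric bud, while H4c18 was listed at 0. How the authors assigned reads that fit several copies is not given in the sources used here, and a listed 0 is not read as silence. Whether shared reads lie behind the listed values was not tested.

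The RNA table also joined many members into 1 locus. The interval chr13:23555028-23764412, 209.385 kb, held 22 members in 25 of its 36 transcript rows, among them H1f3, H1f4, H1f2, H1f1 and H3c3. For these 22 the deposited 95% interval reached a median of 123% of the value to each side in metanephric mesenchyme against 115% in ureteric bud, against 37.7% and 33.3% for members elsewhere with a value above 0. Among members with a value above 0, its lower bound was 0 for 14 and 13 of the 22, and for 4 of 33 and 2 of 32 elsewhere. Intervals of the tissues did not overlap for 1 member inside the locus, H3c3, and for 6 outside it, H2ac20, H2ac15, H2bc21, H4c8, H4c12 and H4c14. Of these 7, 6 were higher in ureteric bud, 11.54% of the 52 members at 1 FPKM or more where 36.6% of all such genes were, and 1, H2ac20, was higher in metanephric mesenchyme, 1.92% where 7.98% of all genes were. The intervals describe the estimate within 1 library and not the spread between animals. Without the members of this locus, 2 of 31 members were 2-fold higher in ureteric bud, where 17.0% of all genes were, and the median difference was -0.44.

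Genes that make, process and carry histones were counted by the same rule. Of 26 genes for transcription and 3' end processing of histone mRNA, all reached 1 FPKM in either tissue, and the median difference was -0.53. As deposited, 1, Gon4l, was 2-fold higher in ureteric bud (listed at 0 in metanephric mesenchyme and at 5.10 FPKM in ureteric bud) with none the other way. Of all genes 17.0% and 4.33% passed. Once the shift of all genes was removed, the median of this list was -0.037, with 1 gene 2-fold higher in ureteric bud and 2 in metanephric mesenchyme. The highest were Srrt, of the cap-binding pathway, at 42.2 and 55.7 FPKM and Cpsf3, the nuclease of 3' cleavage, at 27.8 and 46.1. Slbp stood at 19.1 and 25.7 FPKM, and Npat at 7.65 and 7.18. Of 24 chaperones and import factors, 23 reached 1 FPKM, none differed 2-fold and the median was -0.44. With the shift removed the median of these 23 was 0.094, and again none differed 2-fold. By the mean of log2(FPKM + 1) over both tissues the FACT subunits Supt16 (152 and 164 FPKM) and Ssrp1 (121 and 186) were highest, although Nasp, a chaperone of H3 and H4, was above both in metanephric mesenchyme (153 and 111). Atrx was listed at 0 in both tissues.

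Of 16 histone genes outside the symbol rule, mostly ones expressed outside S phase or only in germ cells, 13 reached 1 FPKM. This list also held H4f16, which has the older cluster name Hist4h4, so it mixes classes. The median difference of the 13 was -0.76 where all genes gave -0.48. On the scale that removes the shift of all genes their median was -0.22 and none differed 2-fold. As deposited, 3 of the 13 were 2-fold higher in ureteric bud, as were 17.0% of all genes, with none the other way: Macroh2a2 (25.6 and 54.9 FPKM), H2aj (3.73 and 9.47) and H3f3b (55.4 and 117), one of the genes for H3.3. Macroh2a1, at 75.7 and 128 FPKM, was highest. All 20 S phase genes reached 1 FPKM, none differed 2-fold, and the median was -0.54. All 20 were lower in metanephric mesenchyme on the deposited scale, where 77.4% of all genes were. Once the shift of all genes was removed, the median of these 20 was -0.035 and none differed 2-fold. By the same mean the replication helicase components Gins2 (208 and 366 FPKM) and Mcm2 (51.2 and 88.8) were highest, although Rrm1 (54.2 and 66.9) was above Mcm2 in metanephric mesenchyme. All 20 S phase genes and all 24 chaperones carried H3K4me3 and no H3K27me3 within 1 kb of the start in each of the 3 populations. The same held for 25, 25 and 26 of the 26 transcription and processing genes, with Sympk carrying both marks in the kidney populations. It held for 11, 11 and 12 of the 16 other histone genes. H3f3b had neither mark in cap mesenchyme and ureteric epithelium and H3K4me3 in ES cells, although its RNA was among the highest of that list. Only the outer end of its annotated span was taken as its start, and any other start was not looked at.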

How the data were processed

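Peaks and RNA were used as deposited, on mm10. Per the submitters' processing notes Bowtie2, MACS, TopHat, Cufflinks and Cuffdiff were used; no source used here gives versions or settings. Every deposited peak has a score, the authors' own value, used only within its list. Input libraries (3) were not used here. RNA values are the authors' deposited FPKM for 1 column per tissue, with the 95% bounds of the authors' deposited table. The number of reads behind them is unknown.

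Gene positions came from RefSeq (GRCm38.p6). The start of a gene was the outer end of its annotated span on its strand, and other starts were not used for the marks. Strand was taken from the promoter table for 57 members and from row order of the RNA table for 5; both agree for 16973 of 16973 genes that have both. A mark was present with 1 base of a peak within 1 kb of the start. Transcript rows were matched by RefSeq accession and summed per gene, leaving out rows that the table codes as lying on the opposite strand. Differences are log2(FPKM + 1), which understates changes of low genes. A 2-fold call needed a difference of 1 and 2 FPKM in the higher tissue, among genes at 1 FPKM or more in either. With 1 sample per group no test was made. Genes were named by a rule: the 3 highest of each class, the 5 largest differences each way at 2 FPKM or more in the higher tissue, members with H3K27me3 or the widest peaks, and in other lists the 2 highest by mean level and those past 2-fold; further genes were named after their values were seen. Members, lists and rule were chosen with earlier results of these data known. Overlap, coverage and calls were tested on simulated data with known answers. Python 3.11.15, pandas 2.3.3 and numpy 2.4.6 were used.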

Additional observations from a re-analysis of the deposited data

How the results depend on the processing

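No paired analysis was possible because each group held 1 sample. H3K4me3 at member starts stayed between 60 and 62 of 62 under other windows, overlaps and list lengths. The few H3K27me3 calls moved. With 2 kb to each side they numbered 1 for cap mesenchyme, 2 for ureteric epithelium and 3 for ES cells, and with 250 bp, or with 50% of the window covered, 0 in ureteric epithelium and 0 in ES cells. At equal list length the ureteric count was 0, and with the upper 50% of peaks by score the ES count was 0. Splitting the groups at gaps over 50 kb, which leaves out long stretches between members, raised H3K4me3 coverage to 35.8%, 32.1% and 48.8%. Scaling ureteric bud RNA to the median gene turned the median difference to 0.020 on the log2 scale, with 1 member 2-fold higher in ureteric bud and 3 in metanephric mesenchyme. Of all genes 7.66% and 6.75% then passed. Without the merged locus, chosen after seeing the data, 2 of 31 members were 2-fold higher in ureteric bud, where 17.0% of all genes were. The other settings, among them another pseudocount (0.1), no filter on low values, exact transcript matches, the older gene names and, chosen after seeing the data, opposite-strand rows or members with a lower bound above 0, left between 3 and 6 members higher in ureteric bud, 0 higher in metanephric mesenchyme and a median of -0.52 to -0.43. Under these settings 9.39% to 22.3% of all genes were 2-fold higher in ureteric bud and 2.76% to 5.08% in metanephric mesenchyme. Without the filter the median of all genes was -0.0031, so there the members lay below it. That background held all 21189 genes with a row, of which 10952 reached 1 FPKM in either tissue. Over those 10952 genes the median was -0.48, near the -0.49 of the members under the same rule.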

Other observations

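A transcript row coded as opposite in strand to H4c14 was left out of that gene's value. It is 123 bases long and was at 145 FPKM (deposited interval 40.2 to 250) in metanephric mesenchyme against 524 (302 to 746) in ureteric bud. H4c14 itself, with a transcript of 384 bases, was at 15.2 and 31.3 FPKM. FPKM is scaled by length, and how well that scaling holds for so short a row was not tested. A row of 692 bases in the merged locus, coded as overlapping a reference transcript of no protein-coding gene, was at 156 and 250 FPKM, near the levels of H1f4 and H1f1 there.

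Genes with older histone cluster names that fall outside the symbol rule were measured too. H2aw, an H2A gene of chromosome 11, stood at 140 FPKM in metanephric mesenchyme against 242 in ureteric bud, which would place it among the highest H2A genes. Its neighbour H2bu2 was at 37.2 and 70.8 FPKM, and H4f16 on chromosome 6 at 14.6 and 28.0. These 3 carried H3K4me3 and no H3K27me3 in all 3 populations. H1f6, the testis linker histone that lies among the members of the third chromosome 13 group, was at 1.287 and 1.498 FPKM and carried H3K4me3 in ES cells alone.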
